A study of Mus musculus with 49 samples.

Results

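Leukaemias that had been started in multipotent progenitors (MPP) were compared with leukaemias that had been started in granulocyte-macrophage progenitors (GMP). Both carried the MLL-AF9 (MA9) fusion, and 6 samples of each were named MPP:MA9 and GMP:MA9. The comparison covered the genes whose mean over these 12 samples reached 1 FPKM, which were 12177 of the 38253 genes measured. FPKM are fragments counted per length of transcript and per number of mapped fragments, so that levels can be compared between genes.

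The study asked whether the normal cell in which a leukaemia begins leaves a mark on the tumour. Cells of C57BL/6J mice aged 6 to 12 weeks, wild type by their labels, were sorted as MPP or as GMP, received a retrovirus with MLL-AF9 and a GFP reporter, and were transplanted into sublethally irradiated mice. Both were lineage-negative, c-Kit-positive, CD34-positive and CD150-negative, and they were told apart by Sca-1, present on MPP, and FcγR, present on GMP. RNA of GFP-positive bulk leukaemia cells was then sequenced from amplified cDNA, 1 mouse per sample. The labels name bone marrow as the tissue, whereas the methods describe leukaemia cells sorted from spleen. In both groups the fusion was driven from a retroviral promoter at sites that may differ between mice, and the hosts kept blood cells of their own. Normal MPP (6 samples) and normal GMP (5 samples) from bone marrow, which did not carry the fusion, served for comparison.

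MPP can give rise to all blood lineages, whereas GMP are committed to granulocytes and monocytes. MLL-AF9 joins the DNA-binding end of the histone methyltransferase MLL to AF9, a partner that recruits factors for transcript elongation, and it is known to hold HOX-A genes and their cofactor Meis1 active. C2H2 zinc finger genes, which take up much of what follows, form one of the largest families of DNA-binding proteins in mammals and lie in clusters that arose by duplication.

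Etohi1, the gene with the highest change among those with a known GC content, lay in a run of such genes near the end of chromosome 2. The run went from Gm14399 to Zfp931 (NCBIM37, chromosome 2, 174954994 to 177813181) and was delimited after the values had been seen. It held 69 annotated genes, 37 of them protein-coding, and 17 reached the minimum level. All 17 encoded at least 1 C2H2 motif (C, 2 residues, C, 12 residues, H, 3 to 5 residues, H) in an annotated transcript, and 16 encoded at least 5, against 3.24% and 2.07% of all 22737 genes with a coding sequence. Etohi1 itself held 12 motifs and Gm14295 held 25.

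The starts of 3 of these genes are shown because they share most of their sequence. RefSeq gave a start for 15 of the 17 genes, Etohi1 among them under the name Zfp971. The 250 bases before the start of Gm14391 (GRCm38.p6, chr2:175206925-175207174, minus strand), of Gm14308 (chr2:176636320-176636569, minus strand) and of Zfp931 (chr2:178078426-178078675, minus strand) follow, 5′ to 3′. Capitals mark a stretch of 40 bases found unchanged in all 3.
Gm14391: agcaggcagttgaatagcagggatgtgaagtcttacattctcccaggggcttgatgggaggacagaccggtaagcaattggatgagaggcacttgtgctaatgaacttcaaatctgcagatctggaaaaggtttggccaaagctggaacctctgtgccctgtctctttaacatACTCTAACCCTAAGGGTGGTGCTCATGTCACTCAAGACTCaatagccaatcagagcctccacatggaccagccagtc
Gm14308: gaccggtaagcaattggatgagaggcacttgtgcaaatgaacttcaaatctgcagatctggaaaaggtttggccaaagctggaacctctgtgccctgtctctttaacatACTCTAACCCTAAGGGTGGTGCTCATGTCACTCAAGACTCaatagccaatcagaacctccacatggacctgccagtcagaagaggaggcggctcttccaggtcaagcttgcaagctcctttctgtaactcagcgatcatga
Zfp931: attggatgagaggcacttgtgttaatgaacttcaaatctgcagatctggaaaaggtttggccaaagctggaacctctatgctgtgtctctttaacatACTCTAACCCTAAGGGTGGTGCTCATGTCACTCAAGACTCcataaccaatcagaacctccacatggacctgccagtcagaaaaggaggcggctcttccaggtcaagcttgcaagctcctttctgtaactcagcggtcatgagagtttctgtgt
The stretch began 77, 141 and 153 bases before the annotated start. Over the bases that could be aligned, Gm14391 and Gm14308 were 98.4% identical, and Gm14308 and Zfp931 were 96.2% identical. The stretch stood before at least 1 start of all 15 genes of the run with a RefSeq start. On either strand it was present in 32 of all 32851 promoters of the table, or 0.0974%, which belonged to 28 genes, all 28 on chromosome 2. The stretch was chosen because these promoters share it, and its presence is a description of the sequence.

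Of 5 properties of the samples, 3 moved with origin. The GC slope of a sample, the change of its log2 level per 10 points of GC content relative to the mean of the 12 samples, was 0.159 to 0.236 in MPP:MA9 and -0.231 to -0.121 in GMP:MA9 (exact permutation test, two-sided, p = 0.00216, and 0.00722 when adjusted over 5 properties). Mitochondrially encoded genes took 15.9% ± 2.19 (SD, n = 6) of the summed FPKM in MPP:MA9 and 25.5% ± 5.76 (SD, n = 6) in GMP:MA9 (p = 0.00433 in the exact permutation test, and 0.00722 when adjusted). This share counts every gene of the mitochondrial chromosome, protein-coding or not. The summed FPKM, 761000 to 801000 in MPP:MA9 and 694000 to 765000 in GMP:MA9, also differed (p = 0.00433 in the exact permutation test, and 0.00722 when adjusted). The number of genes above 0, 16151 to 17112 over the 12 samples, gave p = 0.835 in the same exact permutation test, and the slope over transcript length p = 0.872. Relative depth, read from the steps of low FPKM, was 0.733 to 1.09 times the typical sample in MPP:MA9 and 0.976 to 1.25 times in GMP:MA9. Its difference by origin was not tested, and absolute depth is unknown. MPP:MA9 replicate 2 stood apart on the first principal component (52.5, the others of its group 8.4 to 29) and GMP:MA9 replicate 2 on the second (67.6, the others -13.7 to 8). The labels give no library batch, so a batch that follows origin and origin itself cannot be told apart.

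**Figure D1:**
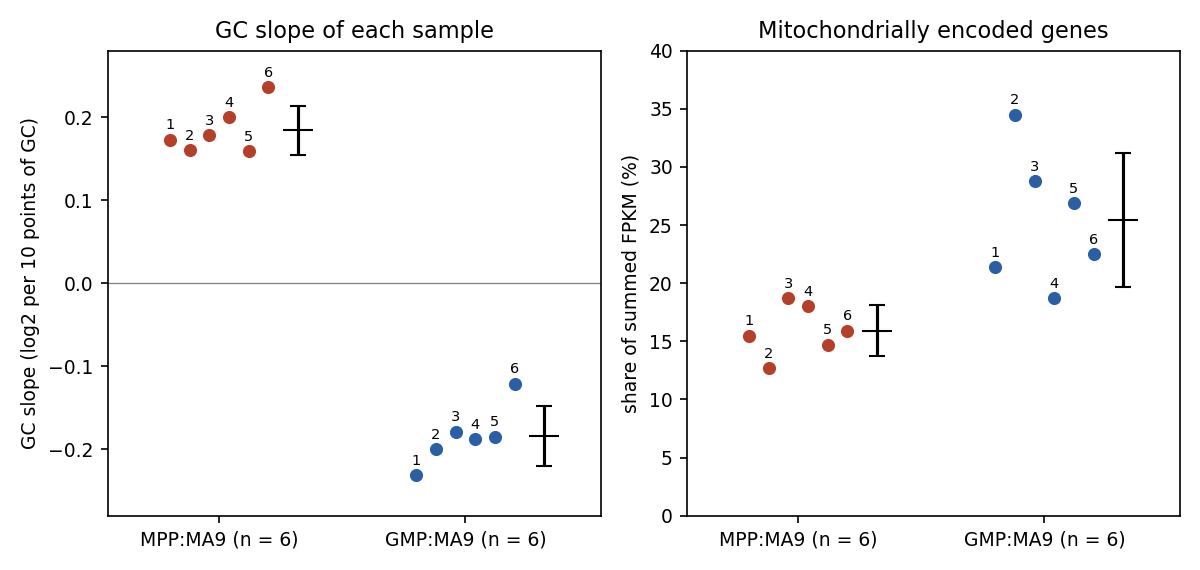
GC slope (left, log2 per 10 points of GC) and share of the summed FPKM from mitochondrially encoded genes (right, %) in each of the 12 leukaemias. Points are samples with their replicate number, and bars are the mean and SD of 6 samples. The GC slopes were 0.159 to 0.236 in MPP:MA9 and -0.231 to -0.121 in GMP:MA9, and the mitochondrial shares met at 18.7%.

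Every change was therefore read both as deposited and after a smooth trend over GC content and length had been removed from each sample. A gene was called where its limma adjusted p was below 0.05 and its change exceeded 1, in either direction, on the log2(FPKM + 1) scale. As deposited, 273 of 12177 genes were called, or 2.24% of those tested, of which 167 (1.37%) were higher and 106 (0.87%) lower in MPP:MA9. After the correction, 63 of the 11702 genes with a GC value were called, or 0.538%, of which 36 (0.308%) were higher and 27 (0.231%) lower. Called both ways were 35 higher and 26 lower genes. Of the 167 higher genes 117 lost the call and 15 had no GC value, and of the 106 lower genes 58 lost the call and 22 had no GC value.

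The change followed GC content across genes. Its median rose from -0.21 among the 1174 genes with the lowest GC content (31.9% to 41.4%) to 0.50 among the 1166 with the highest (57.3% to 70.3%), the ends of 10 bins, and Spearman's rho over 11702 genes, which are not independent replicates, was 0.578. After the correction the median of each bin lay between -0.03 and 0.01. This follows from the method, since the trend was fitted to these same genes and subtracted. The higher genes that lost the call had a median GC content of 57.4%, against 49.4% over all genes tested. The higher genes called both ways had 44.3%, below that of all genes, and the lower genes called both ways 47.3%. The scale of the samples also moved the split by direction. Scaling by median ratios gave 117 higher and 122 lower genes, with the median change of all genes at 0.0062 instead of 0.0695, and leaving mitochondrial genes out of the scale gave 74 higher and many more lower genes (330 in all), with that median at -0.1555.

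**Figure D2:**
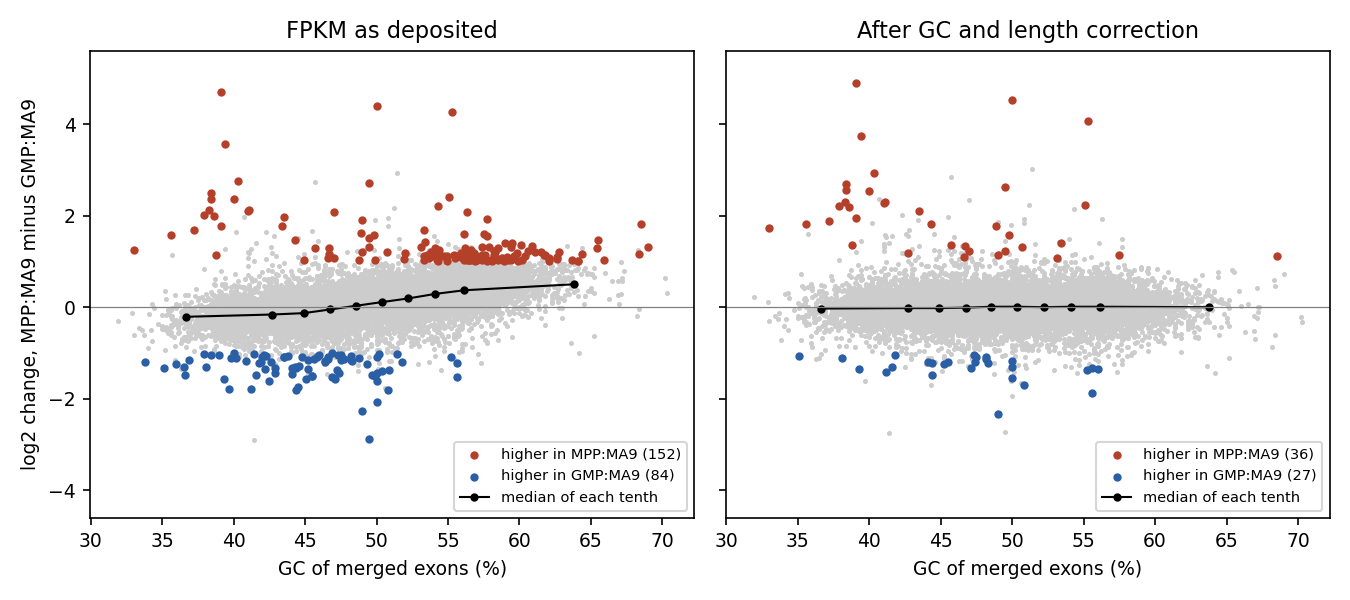
Log2 change between MPP:MA9 and GMP:MA9 against the GC content of merged exons (%) for 11702 genes, as deposited (left) and after the GC and length correction (right). Grey points are genes, coloured points are called genes and the black line joins the median of each of 10 bins. The median ran from -0.21 to 0.50 as deposited. It stayed between -0.03 and 0.01 after correction, which subtracts the trend fitted to these genes.

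The run on chromosome 2 was read in all 6 MPP:MA9 samples and was low in the GMP:MA9 samples. In bulk samples, fewer cells that express a gene and less RNA per cell cannot be told apart. Summed over its 17 genes, the level was 80.7 FPKM at the lowest, 103 at the median and 128 at the highest in MPP:MA9. In GMP:MA9 it was 0.93 at the lowest, 4.5 at the median and 10.4 at the highest, so that the groups were far apart. Of the 17 genes, 15 were called higher in MPP:MA9, and the same number after the GC and length correction. The call of Gm8923 was kept in 6 of the 12 fits that left out 1 sample, and those of the other 14 in all 12. In 13 of the 17 the groups did not overlap, against 7.68% of all genes tested. Of the 15 called genes, 14 had a mean under 1 FPKM in GMP:MA9 and reached the minimum level through MPP:MA9. The run also begins and ends at called genes, so these counts and sums are a description of selected genes. The GC content of these genes, 35.6% to 41.1%, is at the end of the scale where the trend ran the other way, and the correction raised their changes.

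Etohi1 (ENSMUSG00000074519, chromosome 2, 177757989 to 177768727) had the largest change of the run. Its level was 18.7 FPKM at the lowest, 26.3 at the median and 35.6 at the highest in MPP:MA9. In GMP:MA9 it was listed at 0 in 4 samples, at 0.09 in replicate 3 and at 0.22 in replicate 2. The log2 change was 4.71 ± 0.17 (SE, limma adjusted p = 2.54e-09) and 4.90 after correction (limma adjusted p = 4.76e-09). Gm4631 (ENSMUSG00000078899), with 13 motifs, had a mean of 16.2 ± 1.98 FPKM in the MPP:MA9 samples and of 0.507 ± 0.498 in the GMP:MA9 samples (SD, n = 6 each), a log2 change of 3.56 ± 0.19 (SE, limma adjusted p = 3.87e-07). Its lowest MPP:MA9 sample, 13.5 FPKM, was far above its highest GMP:MA9 sample, 1.41.

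Other genes of the run followed the same order at lower levels. Gm14326 was at 5.48 to 11.3 FPKM in MPP:MA9 and 0 to 1.16 in GMP:MA9 (log2 change 2.75, limma adjusted p = 1.75e-05). Gm14410 was at 3.28 to 6.28 FPKM and 0 to 0.34 (2.37, limma adjusted p = 6.8e-06), and Gm14391, the gene with the least shared sequence of the run, at 5.44 to 9.72 and 0.01 to 2.21 (2.12, limma adjusted p = 0.000902). Gm4724, at 2.79 to 5.89 FPKM in MPP:MA9, and Gm14308, at 1.15 to 5.96, were listed at 0 in all 6 GMP:MA9 samples. A few genes were less even. Gm14295 was listed at 0 in MPP:MA9 replicate 5 and was at 1.99 to 8.12 FPKM in the other 5 samples. Gm14399 was at 0.26 and 0.85 FPKM in MPP:MA9 replicates 1 and 5 and reached 13.6 in replicate 3. GMP:MA9 replicate 5 held 2.05 FPKM of Zfp931, 1.83 of Gm8923 and 2.29 of Gm6710, inside the range of MPP:MA9.

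Gm6710 (log2 change 1.26, limma adjusted p = 0.0595) and Gm14296 (0.44, limma adjusted p = 0.0815) were the 2 genes of the run that did not pass. Gm14296 holds 1 motif, the fewest of the 17, and was at 1.26 to 2.26 FPKM in MPP:MA9 and 0.74 to 1.10 in GMP:MA9. The genes of the run share sequence: between 34.8% and 100% of the 31-base windows of their exons occur in another gene. The level of a single gene is therefore uncertain, and the sum over the run is given beside it.

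The run was read in both normal cell types. The summed level was 94.9 to 166 FPKM in normal MPP and 134 to 168 in normal GMP, ranges that overlapped. The interaction of the 2 contrasts, that is, whether the difference by origin was other in leukaemia than in normal cells, was past the threshold for Etohi1 (log2 difference 4.65, limma adjusted p = 1.53e-12), Gm4631 (3.85, limma adjusted p = 9.76e-10) and Gm14326 (2.98, limma adjusted p = 3.11e-08). In the other normal groups it was 102 to 226 FPKM in ST-HSC, 124 to 177 in CMP, 111 to 147 in MEP and 71.6 to 222 in LT-HSC, so that all were above every GMP:MA9 sample and 1 LT-HSC sample was below every MPP:MA9 sample. Leukaemias of the other two origins fell on either side. STHSC:MA9 was at 90.5, 90.5 and 52.8 FPKM, whereas CMP:MA9 was at 5.04 and 1.2 in replicates 1 and 2 and at 35.5 and 62 in replicates 3 and 4. The GC slope of STHSC:MA9, -0.22 to -0.154, was in the range of GMP:MA9. How GC slope and the level of the run go together over the leukaemias was not tested.

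**Figure D3:**
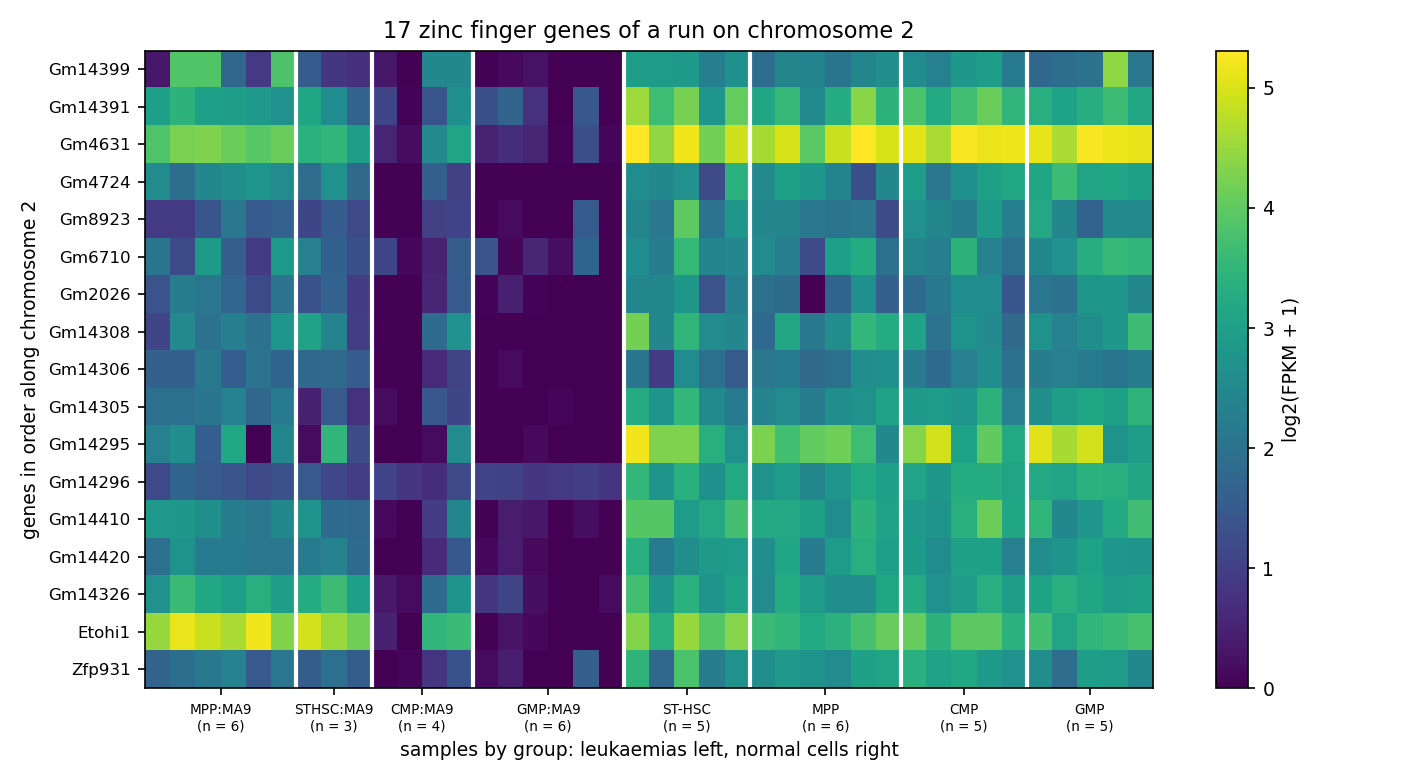
Level, as log2(FPKM + 1), of the 17 genes of the chromosome 2 run (rows, in order along the chromosome) in 40 samples (columns, 1 per sample, by group, with 19 leukaemias left of 21 normal samples). Summed over the genes, MPP:MA9 lay at 80.7 to 128 FPKM and GMP:MA9 at 0.93 to 10.4, while normal MPP and normal GMP lay at 94.9 to 166 and 134 to 168.

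In all, 26 genes were called higher in MPP:MA9 with a mean under 1 FPKM in GMP:MA9 and of at least 1 FPKM in normal GMP, and 14 of the 26 were in the run. In the other direction, 19 genes were called lower with a mean under 1 FPKM in MPP:MA9 and of at least 1 FPKM in normal MPP. This selection was made after values had been seen. Outside the run was 1700112E06Rik (ENSMUSG00000063458, chromosome 14), none of whose windows is shared with another gene. It was at 5.67 FPKM at the lowest, 7.51 at the median and 12.4 at the highest in MPP:MA9, and at 0.18, 0.38 and 0.55 in GMP:MA9. The log2 change was 2.71 ± 0.18 (SE, limma adjusted p = 2.43e-06) and 2.63 after correction (limma adjusted p = 2.26e-06). Normal MPP held 6.36 to 9.51 FPKM and normal GMP 4.84 to 11.4. STHSC:MA9 was at 5.30 to 8.37 FPKM, within the MPP:MA9 range or just under it, and CMP:MA9 at 0.15 to 1.85.

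G530011O06Rik, on the X chromosome, was at 1.34 to 10.2 FPKM in MPP:MA9 and 0.13 to 0.76 in GMP:MA9 (log2 change 1.98, limma adjusted p = 0.0035, and 2.10 after correction, limma adjusted p = 0.0117). Gdf3, a ligand of the TGF-β family, was at 0.28, 1.42 and 10.2 FPKM (lowest, median, highest) in MPP:MA9 and 0 to 0.07 in GMP:MA9. Its call as deposited (log2 change 1.51, limma adjusted p = 0.0461) was lost after correction (1.44, limma adjusted p = 0.128). In normal cells Gdf3 went the other way, with 1.57 to 4.97 FPKM in MPP and 8.03 to 9.42 in GMP.

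Atp5g2 and Dynlt1-ps1 share sequence with other genes. Atp5g2, which encodes subunit c of the mitochondrial ATP synthase, was at 8.75, 8.63, 16.7, 30.1, 31.6 and 29.9 FPKM in MPP:MA9 and listed at 0 in all 6 GMP:MA9 samples (limma adjusted p = 5.11e-06). It was also listed at 0 in all 3 STHSC:MA9 samples and was at 8.73 to 24.7 FPKM in CMP:MA9. With 64.6% of its windows shared and zeros among normal samples (MPP 0 to 29.3, GMP 0 to 23.5 FPKM), the part of shared sequence in its levels was not tested. Dynlt1-ps1, a pseudogene, was at 13.4 to 47.4 FPKM in MPP:MA9 and 0 to 1.74 in GMP:MA9 (log2 change 4.40, limma adjusted p = 5.11e-06).

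Among genes with less than 10% of their windows shared, 21 were called both ways, and in 18 of these the groups did not overlap. By a rule of size, 6 higher and 12 lower genes of this kind are named here, which are all 18. Higher in MPP:MA9 beside 1700112E06Rik was Card9, an adaptor that links C-type lectin receptors to NF-κB. It was at 103 FPKM at the lowest, 163 at the median and 203 at the highest in MPP:MA9, and at 42.9, 50.8 and 60 in GMP:MA9. The lowest MPP:MA9 sample was above every GMP:MA9 sample (a log2 change of 1.59 ± 0.16, SE, with limma adjusted p = 0.000109, and of 1.15 after correction, limma adjusted p = 0.00519). In normal cells Card9 was lower in MPP (7.10 to 20.5 FPKM) than in GMP (at most 33.7, at least 23), the opposite order (log2 change -1.09, limma adjusted p = 0.0014).

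Dusp3, a dual-specificity phosphatase that acts on MAP kinases, was at 29.1, 36.0 and 46.9 FPKM in MPP:MA9 and at 9.48, 13.9 and 19.9 in GMP:MA9 (lowest, median, highest). Its log2 change was 1.32 ± 0.16 (SE, limma adjusted p = 0.000484) and 1.23 after correction (limma adjusted p = 0.00167). Normal MPP and GMP held less of it, 1.82 to 2.37 and 1.28 to 2.01 FPKM. Pycr1, an enzyme of proline synthesis in mitochondria, was at 6.08 to 19.1 FPKM in MPP:MA9 and 2.28 to 4.74 in GMP:MA9 (1.32, limma adjusted p = 0.00452, and 1.06 after correction, limma adjusted p = 0.0357). AY036118, annotated as a pseudogene, was also of this group, at 8.46 to 12.6 FPKM in MPP:MA9 and 0.98 to 3.09 in GMP:MA9. Its GC content of 68.5% is near the end of the scale, and its change fell from 1.81 to 1.12 on correction.

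The mitochondrially encoded mt-Nd3, a subunit of complex I, was at 82.5 FPKM at the lowest, 94.5 at the median and 123 at the highest in MPP:MA9, and at 32.4, 39.4 and 49.6 in GMP:MA9 (a log2 change of 1.24 ± 0.14, SE, with limma adjusted p = 0.000288, and 1.74 after correction, limma adjusted p = 4.59e-05). It was the 1 called of the 13 protein-coding genes of the mitochondrial chromosome. The median change of the 13 was -0.15 as deposited, with 4 above 0, and 0.18 after correction, with 9 above 0. The summed level of all 13 was 12300 to 16500 FPKM in MPP:MA9 and 16100 to 30500 in GMP:MA9. All genes together summed to 761000 to 801000 FPKM in MPP:MA9 and 694000 to 765000 in GMP:MA9. Most of the mitochondrial shares of 15.9% and 25.5% given above therefore came from other genes of that chromosome. STHSC:MA9 held 114 to 132 FPKM of mt-Nd3 and CMP:MA9 22.3 to 36.1.

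Higher in GMP:MA9 were 2 enzymes of mitochondria. Cdk5rap1, which modifies mitochondrial transfer RNA, was at 0.84, 1.85 and 4.53 FPKM in MPP:MA9 and at 9.78, 14.1 and 15.6 in GMP:MA9 (lowest, median, highest), with no overlap (a log2 change of -2.26 ± 0.25, SE, with limma adjusted p = 0.000226, and -2.32 after correction, limma adjusted p = 0.000116). Normal MPP (3.34 to 4.99 FPKM) and normal GMP (2.56 to 3.48) overlapped the range of MPP:MA9 and were below every GMP:MA9 sample. CMP:MA9 replicates 1 and 2, at 14.7 and 15 FPKM, were like GMP:MA9, and replicates 3 and 4 were at 7.04 and 4.38. Nnt, the transhydrogenase that makes NADPH in mitochondria, was at 9.44 to 14.8 FPKM in MPP:MA9 and 24.2 to 32.4 in GMP:MA9 (a log2 change of -1.32 ± 0.12, SE, with limma adjusted p = 4.46e-05, and -1.20 after correction, limma adjusted p = 0.000116). In normal cells Nnt was in the same order, at 12.4 to 17.4 FPKM in MPP and 20.1 to 24.3 in GMP (log2 change -0.56, limma adjusted p = 0.000206). The C57BL/6J strain is known for a deletion of several Nnt exons, and a level per gene does not show which exons were read.

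Eif4e3, a member of the cap-binding eIF4E family, was at 6.01 to 9.52 FPKM in MPP:MA9 and 16.0 to 26.3 in GMP:MA9 (log2 change -1.32, limma adjusted p = 0.000233, and -1.22 after correction, limma adjusted p = 0.000567). H60b, a ligand of the activating receptor NKG2D of natural killer cells, was at 1.24 to 2.49 FPKM in MPP:MA9 and 2.73 to 7.10 in GMP:MA9 (-1.10, limma adjusted p = 0.00501). It was at most 0.62 FPKM in normal MPP and GMP. Efcab7 (-1.47, limma adjusted p = 0.000945), Lrrc4 (-1.17, limma adjusted p = 0.00267) and Fam196b (-1.04, limma adjusted p = 0.00377) were also lower in MPP:MA9 with no overlap. In Efcab7, MPP:MA9 replicate 4 was at 6.19 FPKM and the other 5 samples at 2.51 to 3.43, below the lowest GMP:MA9 sample at 7.47. The call of Fam196b was kept in 8 of the 12 fits that left out 1 sample, and those of Cdk5rap1, Nnt, Eif4e3, H60b, Efcab7 and Lrrc4 in all 12. The remaining 5 were the non-coding transcripts C030013D06Rik (-1.33) and A430092G05Rik (-1.32) and the pseudogenes Gm13899 (-1.23), Gm11935 (-1.81) and Gm12276 (-1.51).

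**Figure D4:**
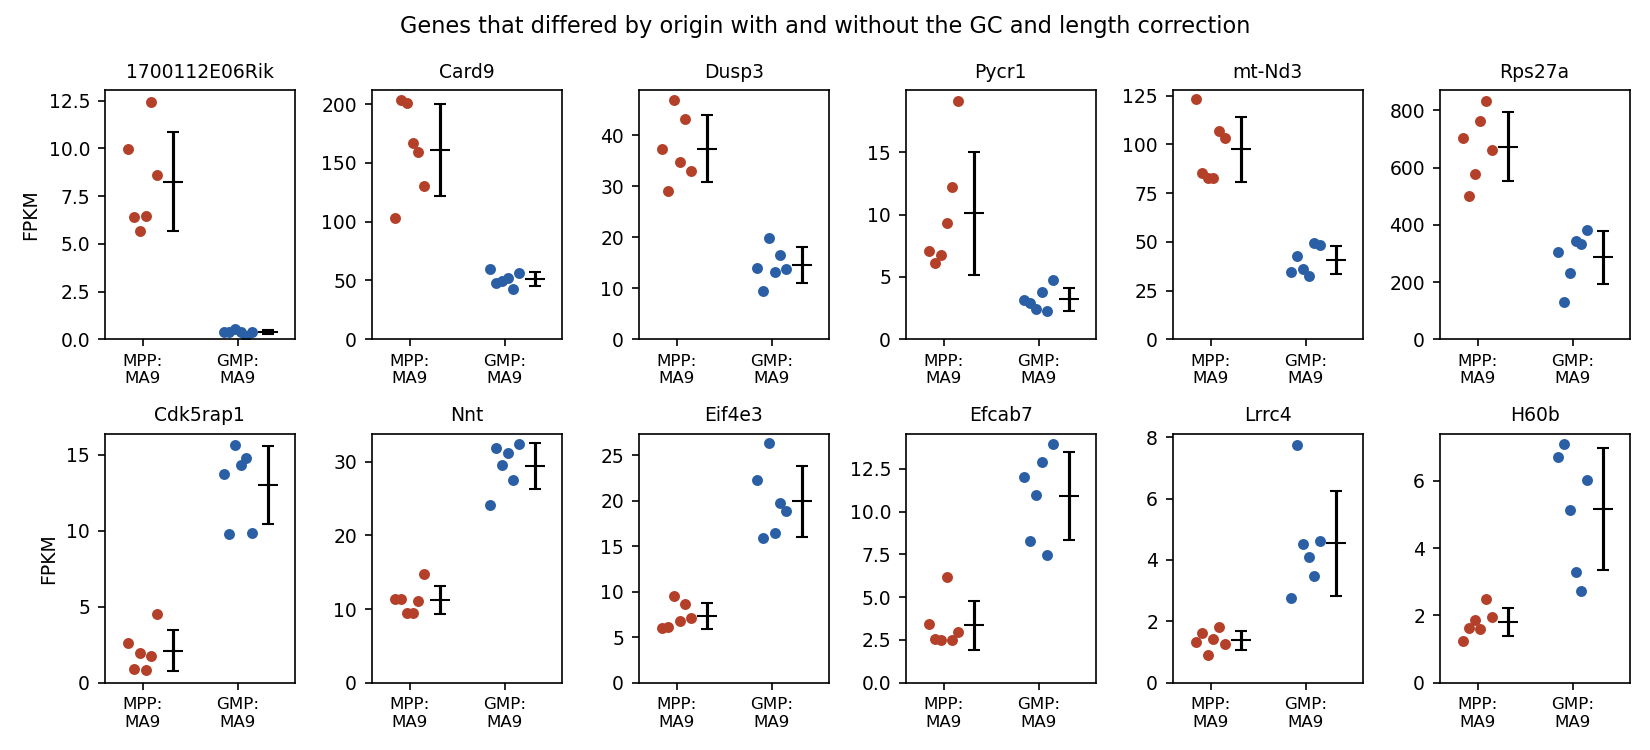
FPKM of 12 genes called by origin both as deposited and after the GC and length correction, in the 6 MPP:MA9 and 6 GMP:MA9 samples (points), with the mean and SD at the right of each group. In every panel the groups do not overlap, for example 103 to 203 and 42.9 to 60 FPKM for Card9.

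Pseudogenes made up an unequal part of the lower calls. Of 500 pseudogenes tested 12 were called higher and 47 lower, or 11.8%, against 1.49% of the 10624 protein-coding genes, of which 138 were higher and 20 lower. After the correction 8 pseudogenes were higher and 14 lower, beside 26 and 10 protein-coding genes. Many pseudogenes share sequence with their parent gene. With every gene that has at least 10% of its windows shared left out, 129 of 9007 genes were called, 85 higher and 44 lower. Gm20463, which shares all of its windows with other genes, was listed at 0 in all 6 MPP:MA9 samples and was at 1.56, 16.4, 10.5, 0, 14.5 and 19.1 FPKM in GMP:MA9 (limma adjusted p = 0.0104 as deposited and 0.0549 after correction).

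Of 18 myeloid transcription factors, 4 were called higher as deposited and the other 14 did not pass, with a median change of 0.60 against 0.07 over all genes tested. Of all genes tested, 1.37% were called higher as deposited and 0.308% after correction. None of the 4 was called after correction, when the median was 0.33 against -0.01. Sfpi1, which encodes PU.1, a factor that drives myeloid and B-cell fate, was at 236, 291 and 296 FPKM in MPP:MA9 and 99.7, 120 and 193 in GMP:MA9 (lowest, median, highest). No sample overlapped (log2 change 1.10 ± 0.15, SE, limma adjusted p = 0.000857), and after correction the change of 0.72 still had an adjusted p of 0.0425 in limma but was under the size limit. Klf4 (1.00, limma adjusted p = 0.0316), and the AP-1 genes Junb (1.09, limma adjusted p = 0.000766) and Fos (1.18, limma adjusted p = 0.0273), were the other 3. After correction their changes were 0.67, 0.46 and 0.99, with limma adjusted p of 0.246, 0.14 and 0.137.

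Of 10 primary granule genes Prtn3, which encodes proteinase 3, was the 1 called (log2 change 1.20, limma adjusted p = 0.0289, and 0.62 after correction, limma adjusted p = 0.324), at 335 to 730 FPKM in MPP:MA9 and 111 to 474 in GMP:MA9. Of 18 late granulocyte genes Mmp8, the neutrophil collagenase, was the 1 called (1.77, limma adjusted p = 0.034, and 1.90 after correction, limma adjusted p = 0.0732). MPP:MA9 replicate 2 held 749 FPKM of Mmp8 and the other 5 samples 52.0 to 138, against 25.0 to 54.7 in GMP:MA9. The summed level of the 18 genes ran from 1510 to 66400 FPKM in MPP:MA9 and from 1700 to 21600 in GMP:MA9, so that the spread within each group was wider than the gap between them. Of 22 monocyte and macrophage genes tested Ly6c1 was called (1.03, limma adjusted p = 0.00633, and 1.02 after correction, limma adjusted p = 0.0522). Ly6c1 shares 51.7% of its windows with other genes. Beside these lists, 1.37% of all genes tested were called higher as deposited.

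In several other lists 1 member was called, each higher in MPP:MA9 and each without a call after correction, where 1.37% of all genes tested were called higher. Among 24 apoptosis regulators it was Bmf, a BH3-only protein that promotes cell death (log2 change 1.30, limma adjusted p = 0.00796). Among 34 genes of G1 and mitosis it was Cdkn2c, the CDK4 and CDK6 inhibitor p18 (1.32, limma adjusted p = 0.0283), at 81.3 to 101 FPKM in MPP:MA9 and 12.7 to 82.0 in GMP:MA9. Among 105 regulators of small GTPases it was Rgl2, an exchange factor for Ral (1.32, limma adjusted p = 0.00105), at 21.7 to 46.4 and 10.6 to 16.5 FPKM. Among 21 interferon-induced genes it was Irf7, and among 18 eicosanoid genes Ptger1, a prostaglandin E2 receptor (1.31, limma adjusted p = 7.97e-05). Ptger1 was at 16.9 to 30.2 FPKM in MPP:MA9 and 7.73 to 9.89 in GMP:MA9, and after correction its change of 0.83 kept an adjusted p of 0.0076 in limma. It shares 24.5% of its windows with other genes. Among genes with less than 10% of windows shared and no overlap of the groups, those that lost the call with the largest changes were, beside Gdf3, Gm16517 (1.46 as deposited, 0.78 after correction) and Inpp5j, an inositol phosphatase (1.39 and 0.88), on the higher side. On the lower side they were 2610024D14Rik (-1.35 and -0.96), Gm13572 (-1.33 and -1.02) and 2810442I21Rik (-1.29 and -1.19).

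Of 81 cytosolic ribosomal protein genes, Rps27a, Rps27 and Rps16 were called higher, and Rps27a and Rps27 also after correction. Of all genes tested, 1.37% were called higher as deposited and 0.308% after correction. Rps27a shares 27.2% of its windows with other genes, Rps27 98.7% and Rps16 48.5%. The part of shared sequence in their levels was not tested. Rps27a, which encodes ubiquitin fused to a ribosomal protein, was at 501, 683 and 834 FPKM in MPP:MA9 and 129, 318 and 383 in GMP:MA9 (lowest, median, highest), with a log2 change of 1.29 ± 0.24 (SE, limma adjusted p = 0.00448). The lowest value was that of GMP:MA9 replicate 2. The change was above 0 in 68 of the 81 genes as deposited and in 54 after correction, with medians of 0.23 and 0.13. Over all genes it was above 0 in 6948 of 12177 as deposited and in 5740 of 11702 after correction, with medians of 0.07 and -0.01. Of 46 replication-dependent histone genes 5 were called higher as deposited, Hist1h2be among them (1.30, limma adjusted p = 0.00972), and Hist1h2be alone after correction (1.37, limma adjusted p = 0.0209). Hist1h2be shares 19.3% of its windows with other genes. Of 81 nuclear genes of the respiratory chain Atp5g2 was the 1 called. Of 255 genes with a Zfp symbol, Zfp931, Zfp36l1 and Zfp467 were called higher and Zfp488 lower, beside 2.24% called over all genes tested, and after correction Zfp931 and Zfp488, beside 0.538%. The windows shared with other genes were 38.8% for Zfp931, 62.2% for Zfp36l1, 0.562% for Zfp467 and 16.7% for Zfp488.

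In many groups of genes that bear on MLL-AF9 leukaemia, limma called 0 members either way. Of 12 genes of the HOX-A cluster and its cofactors, 1 had an unadjusted p below 0.05, and the median change was 0.00. Hoxa9 was at 17.5, 26.0 and 54.0 FPKM in MPP:MA9 and 12.5, 28.3 and 41.4 in GMP:MA9, and the ranges of Meis1, 42.8 to 95.5 and 23.7 to 90.8 FPKM, overlapped too. Their order in normal cells was clear, with Hoxa9 at 18.6 to 25.2 FPKM in MPP and 2.57 to 3.97 in GMP. Of 13 stem-cell transcription factors 5 had an unadjusted p below 0.05, 4 of them higher. Evi1 (Mecom), a factor of stem cells and a proto-oncogene, varied widely within MPP:MA9, in which replicates 1 to 6 held 1.25, 62.0, 9.92, 0.30, 43.4 and 53.4 FPKM. GMP:MA9 held 0 to 0.99 FPKM except in replicate 2, at 25.6, and the change of 2.74 had a limma adjusted p of 0.113. It was called when GMP:MA9 replicate 2 was left out (log2 change 3.50, limma adjusted p = 0.0292) and in none of the other 11 fits without 1 sample. Another list held genes that the study itself discusses, with Hoxa9 and Meis1 added. Of its 13 tested genes, limma called 0, and 4 had an unadjusted p below 0.05. Rac2, a small GTPase of blood cells, was among these with means of 306 and 212 FPKM (log2 change 0.52, limma adjusted p = 0.0391). Apart from the 2 added genes, the study picked most of this list by differences in open chromatin, which it measured in separate libraries. It discussed Evi1 and Cbfa2t3 for their RNA levels in this series, and compared those of Mina and Crybg3 between normal cells and leukaemias. For Evi1 it reported a significantly higher level in MPP:MA9 than in GMP:MA9. That result came from a rank test across normal and leukaemia groups, with fewer samples of both origins than used here. Where a gene lay closest to an open region specific to 1 origin, the study's text reports no accompanying shift in its expression. Its figure of these genes nevertheless marks a significant difference among the normal and leukaemia groups for Rac2.

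With 0 calls in limma were also the MHC class I genes (13 tested, 4 with an unadjusted p below 0.05), MHC class II genes (9 and 0), small GTPases (28 and 8), cytokine receptors (27 and 6), homing and adhesion genes (30 and 10), angiogenesis genes (16 and 6) and stefin A genes (6 and 0). The same was true of MLL complex and Polycomb genes (30 and 12), DNA methylation genes (16 and 2), glycolysis genes (24 and 6), toll-like receptors and adaptors (21 and 6) and lymphoid priming genes (11 and 5). Over all 12177 genes 3583 had an unadjusted p below 0.05.

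Markers of other cells that a GFP gate could let through were read as sums over each list. Myeloid genes were high in every leukaemia. Primary granule genes summed to 7610 to 14200 FPKM in MPP:MA9 and 3790 to 7480 in GMP:MA9, ranges that did not overlap. Gene by gene, the change was above 0 in 6 of these 10, both as deposited and after correction. Monocyte and macrophage genes summed to 2720 to 3450 FPKM in MPP:MA9 and 2130 to 3460 in GMP:MA9. Of T and NK cell markers the summed level was 1.98 to 66.3 FPKM in MPP:MA9 and 1.29 to 11.3 in GMP:MA9, with 4 of 15 under 1 FPKM in every sample. Erythroid markers summed to 24.7 to 1020 and 25.7 to 156 FPKM, and the markers of mast cells, basophils and eosinophils to 19.6 to 77.6 and 28.4 to 469. Plasmacytoid and dendritic cell markers summed to 46.5 to 371 and 81.4 to 424 FPKM, B cell markers to 77.7 to 454 and 97.9 to 349, megakaryocyte markers to 11.4 to 24.5 and 11.8 to 22.6, and stroma and endothelium markers to 21.7 to 63.7 and 38.5 to 99.5. At 0 in all 12 samples were 3 of 13 B cell markers, 2 of 13 mast cell, basophil and eosinophil markers and 2 of 15 stroma and endothelium markers. In the same lists 4, 6 and 3 members reached the minimum level. In limma 0 of the 31 tested members of these 7 lists were called, and 5 had an unadjusted p below 0.05. The ranges overlapped in each of these 7 lists, and the part of other cells, or of the higher primary granule sum, in the changes above was not tested.

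To see whether the difference between the leukaemias repeated that between their cells of origin, both were set side by side. Normal MPP and normal GMP differed in 2046 of 12072 genes, or 16.9%, with 1503 (12.5%) higher and 543 (4.5%) lower in MPP. After the correction these were 1589 genes, or 13.7%, with 7.75% higher and 5.94% lower. Of the 236 genes called between the leukaemias and tested in normal cells, 152 had the same direction in both, or 64.4%, against 61.5% of all 11036 genes tested in both. After the correction of both contrasts 33 of 61 had the same direction, or 54.1%, against 53.4% of all genes. Of the 236, 46 were also called in normal cells in the same direction, 12 in the opposite direction and 178 were not called. After correction these were 3, 3 and 55 of 61.

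Called in both leukaemia fits and in the same direction in normal cells as deposited were, by size, Dynlt1-ps1, Gm12928, Gm12728 and Hist1h2be, and after correction of the normal contrast Dynlt1-ps1 no longer passed (limma adjusted p = 0.0594). Hist1h2be, a histone H2B gene, was at 8.02 to 23.5 FPKM in MPP:MA9 and 2.36 to 8.18 in GMP:MA9, and at 19.4 to 34.0 in normal MPP and 5.12 to 15.4 in normal GMP. Card9, Gm6863 and Phxr4 were called in opposite directions. The interaction of the 2 contrasts was past the threshold in 1830 of 12465 genes, or 14.7%, of which 671 (5.38%) were higher and 1159 (9.3%) lower in the leukaemia contrast. After the correction it was past the threshold in 1654 genes, or 13.8%, with 6.28% higher and 7.54% lower. These 2 contrasts share no samples.

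**Figure D5:**
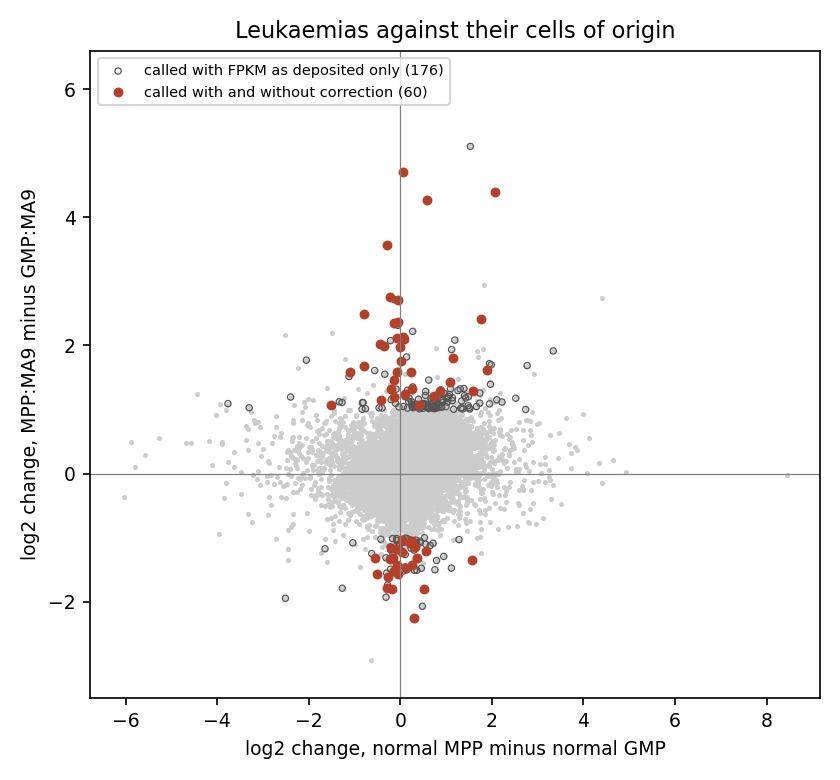
Log2 change between MPP:MA9 and GMP:MA9 (vertical) against log2 change between normal MPP and normal GMP (horizontal) for the 11036 genes tested in both. Filled points were called by origin as deposited and after correction, open points as deposited only, and grey points were not called. Of the 236 called genes 152 lie in the quadrants where both changes have the same sign.

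How the 2 origins not used in the comparison fell was read for the 61 genes called both ways. By mean log2 level, CMP:MA9 was closer to MPP:MA9 in 30 and to GMP:MA9 in 31, and STHSC:MA9 in 32 and 29. Within the chromosome 2 run, STHSC:MA9 was closer to MPP:MA9 in 13 of 15 genes and CMP:MA9 to GMP:MA9 in 13 of 15. Among the other 46 genes, STHSC:MA9 was closer to GMP:MA9 in 27 and CMP:MA9 to MPP:MA9 in 28. Card9 was of the second kind, with 50.9 to 55.1 FPKM in STHSC:MA9, within the range of GMP:MA9, and 84.4 to 113 in CMP:MA9. No test was made of these counts.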

How the data were processed

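The authors deposited FPKM for 38253 genes, rounded to 2 decimals, which they had estimated with RSEM from amplified cDNA libraries; the submitters' processing notes name the mm9 build, and the aligner and annotation are not given in the sources used here. Sample labels accounted for 49 columns, and the other 19 stayed out of every step. Groups came from the labels. Positions, GC content and the share of 31-base exon windows found in another gene came from GENCODE M1 on NCBIM37 (33068 genes matched), promoters from RefSeq on GRCm38.p6.

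Genes that reached a mean of 1 FPKM were compared on log2(FPKM + 1), which understates the changes of low genes, with limma 3.58.1 (two-sided, mean-variance trend, Benjamini-Hochberg) in R 4.3.3. The correction subtracted from each sample a smooth trend (mgcv 1.9.3) of its deviations over GC content and log2 length. The fit was tested on simulated data. FPKM hold no read totals, so no counting interval was computed. Mice were sampled once each, and the replicate experiments are not labelled, so p-values may also hold technical spread.

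The members, gene lists and tests were chosen with earlier results of these data known. Named genes were those the study discusses, with Hoxa9 and Meis1 added. Also named were the largest changes among genes called both ways with less than 10% of windows shared and no overlap of the groups (up to 12 each way). Up to 3 each way lost on correction and 3 each way with shared sequence were named. So were up to 4 called members of each list, and up to 4 each with the same and the opposite direction in normal cells. The chromosome 2 run, Gdf3, 1700112E06Rik and G530011O06Rik were added after their values were seen. Other steps used Python 3.11.15. Alternatives are given in the closing section.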

Additional observations from a re-analysis of the deposited data

Results flagged for a closer look

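A sample lay apart from the other 5 of its group, by its gap relative to the range of log2(FPKM + 1), in 17 of 178 sets of values, where chance gives about 1 in 20 for values without ties. In the GMP:MA9 sets of Gm14295, Gm14305, Gm14306 and Gm12928 the other 5 samples were all at 0, so that any reading stood apart. GMP:MA9 replicate 2 held 25.6 FPKM of Mecom (others 0 to 0.99), 71.6 of Rps16 (158 to 213), 209 of Rps27 (513 to 752), 2.36 of Hist1h2be (5.45 to 8.18), 0.34 of Gm14420, 0.11 of Gm14306 and 0.38 of Gm2026. MPP:MA9 replicate 2 held 749 FPKM of Mmp8 (52.0 to 138), 95.5 of Meis1 (42.8 to 54.2) and 5.57 of Gm14420 (2.83 to 3.63). These are the 2 samples that stood apart on the principal components. MPP:MA9 replicate 4 held 6.19 FPKM of Efcab7. In GMP:MA9, replicate 5 held 2.05 FPKM of Zfp931 and 1.83 of Gm8923, replicate 3 held 0.10 of Gm14295, replicate 4 held 0.06 of Gm14305 and replicate 1 held 3.08 of Gm12928. The slope over transcript length was -0.0311 log2 per doubling in MPP:MA9 replicate 5.

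The difference by origin was not the same in leukaemia as in normal cells, by limma's interaction term, in 58 of the 85 named genes that had it, against 14.7% of all genes tested. Most of the named genes had been chosen by their change between the leukaemias or by opposite directions in normal cells, so this count is a description. Values are the leukaemia change minus the normal change on the log2 scale. In the chromosome 2 run they were 4.65 for Etohi1, 3.85 for Gm4631, 3.27 for Gm4724, 2.98 for Gm14326, 2.49 for Gm14399, 2.47 for Gm2026, 2.46 for Gm14305, 2.41 for Gm14410, 2.35 for Gm14295, 2.19 for Gm14308, 2.06 for Gm14391, 2.02 for Gm14420, 1.99 for Gm6710, 1.74 for Gm14306, 1.56 for Gm8923 and 1.35 for Zfp931. Among other genes higher in MPP:MA9 it was 2.75 for 1700112E06Rik, 1.98 for G530011O06Rik, 1.84 for Klf4, 3.70 for Atp5g2, 2.33 for Dynlt1-ps1, 2.04 for Inpp5j, 1.53 for Pycr1, 1.41 for Cdkn2c, 1.20 for Sfpi1, 1.15 for mt-Nd3 and 1.07 for Dusp3.

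Genes that were lower in normal MPP than in normal GMP had values of 4.33 for Ly6c1, 3.82 for Mmp8, 3.59 for Prtn3, 2.69 for Card9, 2.63 for Gdf3 and 2.59 for Gm6863. Genes that were higher in normal MPP than in normal GMP had -3.19 for Meis1, -2.55 for Hoxa9, -2.47 for Hoxa5, -1.43 for Zfp36l1, -1.38 for Tap2, -1.37 for Cbfa2t3 and -1.10 for Irf7. Genes lower in MPP:MA9 had -3.26 for Gm20463, -2.91 for Phxr4, -2.56 for Cdk5rap1, -2.55 for Gm11603, -2.24 for 2810442I21Rik, -1.68 for Eif4e3, -1.64 for Gm11935, -1.60 for Efcab7, -1.57 for 2610024D14Rik, -1.49 for Gm4596, -1.37 for Gm12276, -1.31 for Zfp488, -1.31 for Gm13572, -1.26 for Gm13899, -1.15 for A430092G05Rik, -1.11 for C030013D06Rik, -1.10 for Lrrc4 and -1.08 for Fam196b.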

How the results depend on the processing

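The count of 273 genes called by origin stayed within 1.5 times with 0.1 as the pseudocount (375), low values kept (230), a scale from median ratios (239), one without mitochondrial genes (330), all 19 leukaemias in the fit (271) and each sample left out (224 to 298), and was 276 without replicate 2 of either group, a setting added after seeing the data. It moved to 63 with the GC and length correction, 75 with GC correction alone, 129 without genes that share sequence and 1601 with no fold threshold. Replicate numbers did not pair the samples: deviations of same-numbered samples correlated at -0.166 to 0.282. With the replicate block the count was 261, and with block and correction 41. The corrected count of 63 ran from 37 (without MPP:MA9 replicate 6) to 79 when 1 sample was left out and was 80 without replicate 2 of either group, both added later. Normal MPP and GMP differed in 1589 to 2648 genes over all alternatives. The share with the same direction in normal cells moved from 64.4% to 54.1% with both contrasts corrected.

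Of 86 named genes 71 were called, 0 of these changed direction under any setting, and 32 kept the call under every setting. Of 12 fits without 1 sample, the call held in 3 for Gdf3 and Hist1h2an, 4 for Gm11603, 5 for Prtn3 and Gm6863, 6 for Klf4, Mmp8, Zfp467 and Gm8923, 7 for Fos, Cdkn2c and Ly6c1 and 8 for Fam196b. Mecom, not called, had an adjusted p of 0.0353 in limma with the replicate block (0.0292 to 0.213 with a sample left out). Of genes not called, 7 changed direction: Hoxa9 (-0.05 with median ratios, -0.23 without mitochondrial genes, -0.09 with the correction and with the block added, -0.06 with GC alone, -0.18 to 0.15 with a sample left out), Cbfa2t3 (-0.14 without mitochondrial genes, -0.36 corrected, -0.33 with GC alone, -0.09 to 0.27 with a sample left out), Mina (0.06 corrected, 0.09 with GC alone, -0.15 to 0.14 with a sample left out), Armc1 (0.01 corrected, and 0.02 with GC alone), Crybg3 (0.00 corrected, and 0.01 with GC alone), Alcam (-0.34 to 0.05 with a sample left out) and Lrrc4c (-0.50 to 0.01 likewise). Among sample properties, leaving out a sample turned the difference in length slope (-0.0113 to 0.011) and in genes above 0 (from -34.2 to 158).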
